A study of Mus musculus with 18 samples.

Results

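The step from 2 to 8 gray (Gy, the unit of absorbed dose) was examined in whole blood of mice 6 hours after exposure. It covers the 6 samples labelled 8 Gy and the 5 labelled 2 Gy, 11 of the 18 samples of the series; the other 7 were sham treated (0 Gy) and did not enter the contrast. All mice were males of the inbred C57BL/6N strain, 8 to 12 weeks old, irradiated or sham treated in the same holder with gamma rays from a cesium source, and bled from the heart. The design text counts 18 distinct biological samples, with 1 array each. RNA came from the RiboPure blood kit for 4 of the 5 samples at 2 Gy and all 6 at 8 Gy, and from the PAXgene kit for the remaining sample at 2 Gy (replicate 5). Globin RNA was removed from every sample. The question was which transcripts have already reached their level at 2 Gy and which go on moving up to 8 Gy, among 11969 genes with a usable probe.

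Ionizing radiation breaks DNA, and the break-sensing kinases stabilise the transcription factor p53. It then switches on genes that halt the cell cycle (Cdkn1a), trigger apoptosis (Bax, Bbc3), or restrain p53 itself (Mdm2). Blood is a mixture whose parts differ in radiosensitivity: B cells die readily after irradiation, while mature neutrophils do not divide and are released from a marrow reserve under stress. In whole blood a lower level of a cell type's transcripts can come from fewer cells of that type or from less RNA per cell, and these cannot be told apart here.

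Levels are log2 signals relative to the 75th percentile of the same array, so they compare one gene between arrays and never one gene with another. The 75th percentile was 46.4 to 186 intensity units in the 2 Gy arrays and 58.4 to 232 in the 8 Gy arrays, and between 15456 and 22782 probes per array were well above background. With 11 arrays, precision rests on their number. Markers of neutrophils, B cells, T cells, erythroid cells and platelets were all measured. Several arrays also carried transcripts that blood cells do not make in quantity. The 15 markers of resident macrophages, the phagocytes of tissues and body cavities (such as Cd5l, C1qa, Vsig4 and Retnla), had mean levels of 0.49, -1.99, 2.56, -2.42 and -0.87 in 2 Gy replicates 1 to 5. At 8 Gy that mean ranged from -1.51 (replicate 3) through a median of 2.30 to 3.93 (replicate 1), so 5 of 6 arrays at 8 Gy lay above 4 of 5 at 2 Gy. The 13 hepatocyte markers, led by the plasma protein genes Alb and Ahsg, averaged 7.42 in 2 Gy replicate 3, with 13 of 13 well above background. In the other 10 arrays they averaged between -4.80 and -3.14, with 1 to 4 of 13 well above background. The 5 markers of lung epithelium averaged 1.46 in 8 Gy replicate 1 and between -5.48 and -1.37 in the other 10 arrays. All 5 markers of mesothelium, the lining of the body cavities, were well above background in 8 Gy replicate 1 as well.

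**Figure D1:**
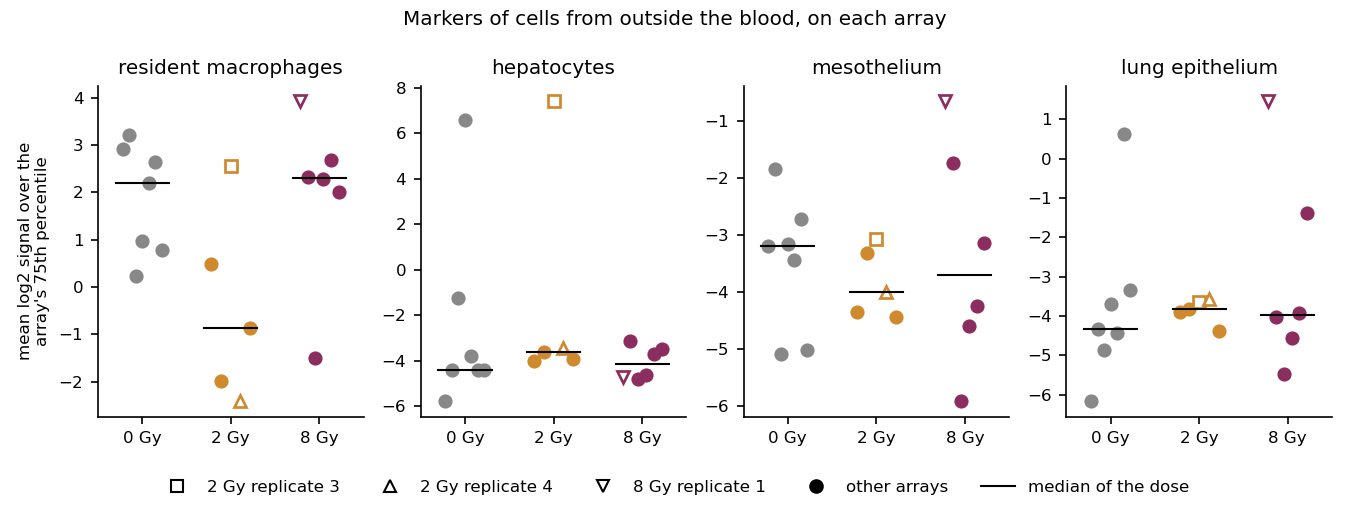
Mean log2 signal, relative to the array's 75th percentile, of marker genes of resident macrophages (15 genes), hepatocytes (13), mesothelium (5) and lung epithelium (5); each point is 1 array, grouped by dose, and the line is the median of the dose. The open square, 2 Gy replicate 3, reaches 7.42 for hepatocyte markers, and the open inverted triangle, 8 Gy replicate 1, is the highest array for the other 3 sets among the 11 irradiated samples.

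Arrays that stood apart bear on every result. The array labelled 2 Gy replicate 3, the one with hepatocyte transcripts, had a median correlation of 0.849 with the other 10 arrays, against 0.931 to 0.957 for those. The arrays labelled 2 Gy replicate 4 and 8 Gy replicate 1 lay on the other dose's side of most lists that separate the doses. For B cell genes, a list's mean log2 level relative to the mean of the 2 Gy arrays was -0.92 in 2 Gy replicate 4 and -0.14 to 0.55 in the other 4 arrays at 2 Gy. It was 1.04 in 8 Gy replicate 1 and -1.11 to -0.30 in the other 5 at 8 Gy. The p53 target list showed the same pattern, with 0.34 in 2 Gy replicate 4 against -0.38 to 0.03, and -0.02 in 8 Gy replicate 1 against 0.23 to 0.49. Both arrays came from 1 slide, which also held 8 Gy replicates 2 and 5. Among the sham-treated mice, the array labelled 0 Gy replicate 5 lay with the irradiated ones for p53 targets, at 0.059 against a 0 Gy median of -0.996; it enters only the 0 Gy medians. Whether the dose labels of these arrays are right was not tested, and all arrays keep their labelled dose throughout. Every list is also given without 2 Gy replicate 4 and 8 Gy replicate 1, called the 2 outlying arrays from here on. Most lists are also given without 2 Gy replicate 3. Leaving out arrays picked for lying on the other dose's side favours a larger difference between the doses, so those values are descriptions.

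**Figure D2:**
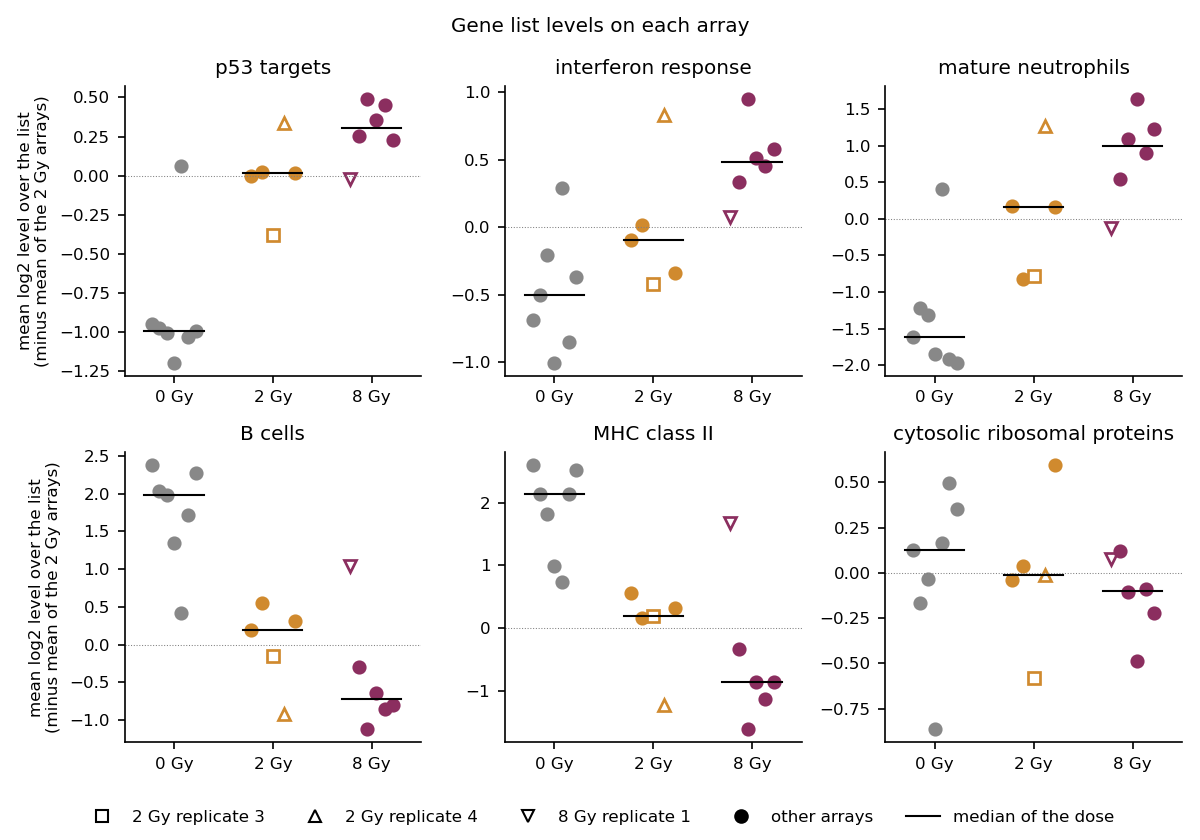
Mean log2 level of 6 gene lists on each of the 18 arrays, relative to the mean of the 5 arrays at 2 Gy (dotted line at 0); lines are medians of each dose. In the p53, interferon, neutrophil, B cell and MHC class II panels the open triangle (2 Gy replicate 4) lies among the 8 Gy arrays and the open inverted triangle (8 Gy replicate 1) lies toward the 2 Gy or 0 Gy arrays, for example at 1.67 for MHC class II.

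Across all genes the step from 2 to 8 Gy was small relative to the spread between mice. None of 11969 genes (0%) passed an adjusted p of 0.05 in limma's moderated test in either direction, and the smallest adjusted p was 0.889. At an unadjusted p under 0.05, 328 genes (2.74%) were higher at 8 Gy and 166 (1.39%) lower, 4.13% in all. That balance depended on the processing: with normexp background correction, which models the background in place of the scanner's own subtraction, 152 were higher and 204 lower, and without 8 Gy replicate 6 they numbered 275 and 369. Leaving out 1 array gave as few as 154 and 109 (without 2 Gy replicate 2) and as many as 777 and 336 (without 2 Gy replicate 4). By size alone, 196 genes (1.64%) differed by a log2 value of 1 or more and 234 (1.96%) by -1 or less. A second test asked the opposite question, whether a gene's difference can be bounded within 2-fold in both directions (2 one-sided limma tests against a log2 difference of 1, adjusted over all genes). By that rule 7694 genes (64.3%) were bounded. The share was 72.6% among the 9453 genes well above background on all 11 arrays and 32.9% among the other 2516. No gene could be bounded within 1.5-fold, so a bounded gene may still differ by less than 2-fold. The median standard error was 0.30 on the log2 scale, with a median 95% interval from -0.58 to 0.67.

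Without 2 Gy replicate 4 and 8 Gy replicate 1, 5 genes passed limma's test, each at an adjusted p of 0.0424. The bounded genes numbered 4441 (37.1%). Those 2 arrays were picked by their levels of lists such as p53 targets and B cell genes. The adjusted p rests on the same values, so it describes these genes and is not a test of them. The 2 higher genes (0.0167%) were Gtse1, a p53-inducible cell cycle gene, with a log2 difference of 1.56 ± 0.20 (SE), and the uncharacterised 1700007K13Rik with 2.22 ± 0.26. The 3 lower genes (0.0251%) were Fcer2a, the low-affinity IgE receptor CD23 of B cells, with -2.12 ± 0.27, the immunoglobulin kappa variable segment Igk-V1 with -2.22 ± 0.28, and another kappa variable segment of the same family with -2.60 ± 0.34. Such segments are near-identical copies, so the last 2 probes may report the same transcripts. The other 4 besides Fcer2a were singled out after their values were seen. At an unadjusted p under 0.05 these 9 arrays gave 1050 higher (8.77%) and 567 lower (4.74%). Without 2 Gy replicate 3 as well, limma called 0 genes (smallest adjusted p 0.0700), with 938 higher (7.84%) and 803 lower (6.71%) at an unadjusted p under 0.05, and 6505 (54.3%) were bounded. With the resident macrophage level as a covariate on all 11 arrays, limma also called 0 genes, with 1588 (13.3%) higher and 888 (7.42%) lower at an unadjusted p under 0.05, and 3076 (25.7%) were bounded. Without 2 Gy replicate 3 alone limma called 0 genes, with 340 (2.84%) higher and 369 (3.08%) lower at an unadjusted p under 0.05 and 8446 (70.6%) bounded. Without the PAXgene array it again called 0, with 205 (1.71%) and 124 (1.04%), and 7203 (60.2%) bounded. The part of those macrophage transcripts in the dose difference was not tested beyond this fit.

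The p53 targets came first. Of 62 measured targets, 0 passed the adjusted threshold in limma. At an unadjusted p under 0.05, 6 were higher and 0 lower, against 2.74% and 1.39% of all genes. Within 2-fold 34 (54.8%) were bounded, against 64.3% of all genes. These shares of all genes are the reference for every later count with all arrays. Without the 2 outlying arrays the reference is 8.77% higher, 4.74% lower and 37.1% bounded. Without 2 Gy replicate 3 it is 2.84%, 3.08% and 70.6%. The targets' median log2 difference was 0.28 (1.22-fold), with 51 of 62 higher at 8 Gy, against a median of 0.04 over all genes. It was 0.16 without 2 Gy replicate 3 and 0.50 without 2 Gy replicate 4 and 8 Gy replicate 1, where 18 were higher at an unadjusted p under 0.05 and 14 remained bounded. With the macrophage covariate it was 0.59, with normexp background correction 0.074, and with slide as a random block (consensus correlation 0.46) 0.16. On the slide that held 2 Gy replicate 4 and 3 arrays at 8 Gy the median was -0.21, and on the day that scanned 2 Gy replicate 3 and 8 Gy replicate 6 it was 0.88; no other slide or scan day held both doses.

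Cdkn1a, Ccng1 and Mdm2, whose difference could not be bounded, are set beside Bax, whose difference could. Their upstream sequences are shown because all 4 carry a match to the p53 half-site, the decamer that p53 dimers bind, whichever way they behaved. For a gene with more than 1 RefSeq start, the start with the most matches was taken. Cdkn1a had a match at 1 of its 2 starts. Each sequence is the 250 bases before a RefSeq start on build GRCm38.p6. The sequences are printed 5′ to 3′ on the gene's strand, with half-site matches in capitals. They lie at chr17:29090729-29090978 (+) for Cdkn1a, chr11:40755287-40755536 (-) for Ccng1, chr10:117710759-117711008 (-) for Mdm2 and chr7:45466899-45467148 (-) for Bax.
Cdkn1a: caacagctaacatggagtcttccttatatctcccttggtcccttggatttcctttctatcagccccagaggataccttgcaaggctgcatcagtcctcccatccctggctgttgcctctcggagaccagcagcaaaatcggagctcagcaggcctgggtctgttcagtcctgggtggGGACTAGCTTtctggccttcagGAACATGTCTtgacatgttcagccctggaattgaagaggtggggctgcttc
Ccng1: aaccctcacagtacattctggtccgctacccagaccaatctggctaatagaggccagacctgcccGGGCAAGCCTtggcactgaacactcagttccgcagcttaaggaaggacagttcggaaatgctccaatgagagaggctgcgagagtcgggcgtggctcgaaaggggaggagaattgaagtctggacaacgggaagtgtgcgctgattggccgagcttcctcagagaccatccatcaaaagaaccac
Mdm2: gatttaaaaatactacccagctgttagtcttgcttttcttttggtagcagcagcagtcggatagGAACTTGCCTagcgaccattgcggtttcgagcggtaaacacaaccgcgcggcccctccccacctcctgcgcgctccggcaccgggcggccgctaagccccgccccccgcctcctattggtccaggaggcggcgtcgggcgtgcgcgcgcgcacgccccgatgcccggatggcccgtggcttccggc
Bax: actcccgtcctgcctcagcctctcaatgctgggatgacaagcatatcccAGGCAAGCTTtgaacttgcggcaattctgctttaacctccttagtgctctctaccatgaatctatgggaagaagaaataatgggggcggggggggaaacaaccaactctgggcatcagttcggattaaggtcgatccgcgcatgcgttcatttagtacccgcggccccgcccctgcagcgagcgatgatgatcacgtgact
The half-site reads the same on both strands. It occurs in 7.13% of 32851 such windows of RefSeq starts and in 15 of 69 windows (21.7%) of the p53 list, of which 52 of 62 measured genes had an entry. A full site, 2 half-sites within 13 bases of each other, occurs in 0.0639% of all windows and in 1 of the 69, the Cdkn1a window, where the matches begin 73 and 51 bases before the start. The single matches begin 185 bases before the start in Ccng1, 186 in Mdm2 and 201 in Bax. A match is a description of letters and not a bound site.

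Among the targets that stop the cell cycle, 4 of 11 were higher at 8 Gy at an unadjusted p under 0.05, against 2.74% of all genes. Of the 11, 4 were bounded (36.4%, against 64.3% of all genes), and the median difference was 0.55 (1.47-fold). Cdkn1a encodes p21, the cyclin-dependent kinase inhibitor that carries out p53's arrest. Its levels were 1.47, 0.41, 1.01, 1.62 and -0.30 in 2 Gy replicates 1 to 5, and from 1.20 through a median of 1.96 to 2.67 at 8 Gy. The highest 2 Gy arrays overlapped the lowest at 8 Gy, and all 11 stood above the 0 Gy median of -2.43. The difference was 1.08 ± 0.37 (SE; 95% interval 0.27 to 1.89; limma, adjusted p = 0.889), 1.12 without the 2 outlying arrays and 0.43 with slide as a fixed block, which compares 2 Gy replicate 4 with 3 arrays at 8 Gy. Unlike most targets, Cdkn1a was highest in 8 Gy replicate 1, the array that otherwise lay on the 2 Gy side.

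Gtse1, which binds p53 and moves it out of the nucleus in G2, read -0.90, -0.73, -0.96, -0.07 and -1.05 at 2 Gy. At 8 Gy replicate 1 read -1.62 and the other 5 arrays lay between 0.39 and 0.95, all of them above every 2 Gy array. Its difference was 1.01 ± 0.42 (limma, adjusted p = 0.889) with all arrays. Without the 2 outlying ones it was 1.56 ± 0.20, a description, since p53 targets helped to pick those arrays. Plk2, a stress-responsive polo-like kinase, had -0.93, -0.84, -0.15, 0.44 and -0.52 at 2 Gy against -0.31 to 0.90 (median 0.68) at 8 Gy, a difference of 0.93 ± 0.30 (limma, adjusted p = 0.889). With slide as a fixed block Plk2 and Gtse1 turned direction, to -0.22 and -0.096. Cyclin G1 (Ccng1), which recruits a phosphatase to Mdm2, had 3.21, 3.26, 2.53, 3.57 and 3.72 at 2 Gy and from 3.30 through 3.90 to 4.20 at 8 Gy. Its interval for the difference, 0.01 to 1.10, only just left 0. By contrast Psrc1, a spindle protein with one of the largest first steps of the list, stood at 3.09, 3.45, 1.96, 3.66 and 3.39 at 2 Gy and from 2.97 to 3.82 at 8 Gy, with a 0 Gy median of -1.27. Its difference of 0.30 ± 0.31 was bounded within 2-fold (limma, adjusted p = 0.0372 for the bound), though not without the 2 outlying arrays, and with slide as a fixed block it was -0.20.

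Of the apoptosis targets, 7 of 15 were bounded (46.7%, against 64.3% of all genes). At an unadjusted p under 0.05, 1 was higher, against 2.74% of all genes. Bax, which opens the mitochondrial outer membrane, was level: 3.13, 3.05, 2.35, 2.99 and 3.09 at 2 Gy and from 2.74 through 2.96 to 3.12 at 8 Gy, against a 0 Gy median of 1.28. The difference was 0.01 ± 0.19 (95% interval -0.41 to 0.43; limma, adjusted p = 0.00453 for the bound), and 0.02 without the 2 outlying arrays. The array with hepatocyte transcripts gave the one low value. Bbc3 (Puma), Aen and Zmat3 were bounded too, with differences of 0.21, 0.39 and 0.46 and 0 Gy medians 1.97, 1.83 and 1.74 below their 2 Gy medians, but none of the 3 was bounded without the 2 outlying arrays. Fas, the death receptor, missed the bound (difference 0.36, interval -0.35 to 1.08). With slide as a fixed block Bbc3 and Fas turned direction, to -0.33 and -0.60. Trp53inp1, which keeps p53 in its pro-death form, behaved otherwise. It read 3.68, 3.86, 3.07, 4.41 and 3.77 at 2 Gy, 3.67 in 8 Gy replicate 1, and between 4.68 and 4.89 in the other 5 arrays at 8 Gy, which lay above every 2 Gy array. Its difference was 0.85 ± 0.28 (limma, adjusted p = 0.889) and 1.20 ± 0.21 without the 2 outlying arrays (limma, adjusted p = 0.107), and 0.0026 with slide as a fixed block. A second, dimmer Trp53inp1 probe gave -0.23.

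In the feedback group 6 of 7 members were bounded with all arrays, against 64.3% of all genes. Without the 2 outlying arrays 1 of 7 was, Wrap53, against 37.1% of all genes. The 2 Gy medians of Wrap53, Cop1 and Mdm4 lay 0.06, 0.10 and 0.21 above 0 Gy, so these had little first step to hold. Mdm2, the ubiquitin ligase that degrades p53, was the exception, with 3.13, 3.12, 2.59, 3.82 and 2.40 at 2 Gy and from 2.90 through 3.68 to 4.06 at 8 Gy (difference 0.53 ± 0.30, interval -0.12 to 1.18; -0.32 with slide as a fixed block). Phlda3, which blocks Akt, had 5.24, 5.20, 4.50, 5.65 and 5.55 at 2 Gy and from 5.01 through 5.58 to 6.07 at 8 Gy, well over its 0 Gy median of 2.59. Its difference of 0.36 ± 0.26 was bounded (limma, adjusted p = 0.0295 for the bound), and not without the 2 outlying arrays.

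In the metabolism and stress group, 12 of 21 were bounded (57.1%, against 64.3% of all genes). At an unadjusted p under 0.05, 1 was higher, against 2.74% of all genes. Dglucy, a D-glutamate cyclase, gave the tightest values of any target: 3.15, 3.23, 3.46, 3.21 and 3.27 at 2 Gy and from 3.1 through 3.21 to 3.39 at 8 Gy, with a 0 Gy median of 1.09. Its difference was -0.04 ± 0.16 (95% interval -0.38 to 0.30). The ribosomal protein paralogue Rps27l likewise differed by 0.11 between the doses, with its 2 Gy median 1.41 above the 0 Gy median. Cd80, a costimulatory ligand for T cells, was the member higher at 8 Gy, with -1.51, -1.96, -2.92, -1.23 and -2.05 against -1.58 to -0.28, a difference of 0.98 ± 0.33 (limma, adjusted p = 0.889). Among the DNA repair targets 5 of 8 were bounded (62.5%, near the 64.3% of all genes). Ddb2, a nucleotide excision repair sensor, differed by 0.05, but its 2 Gy median was 0.27 below the 0 Gy median, so it had no first step to hold.

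**Figure D3:**
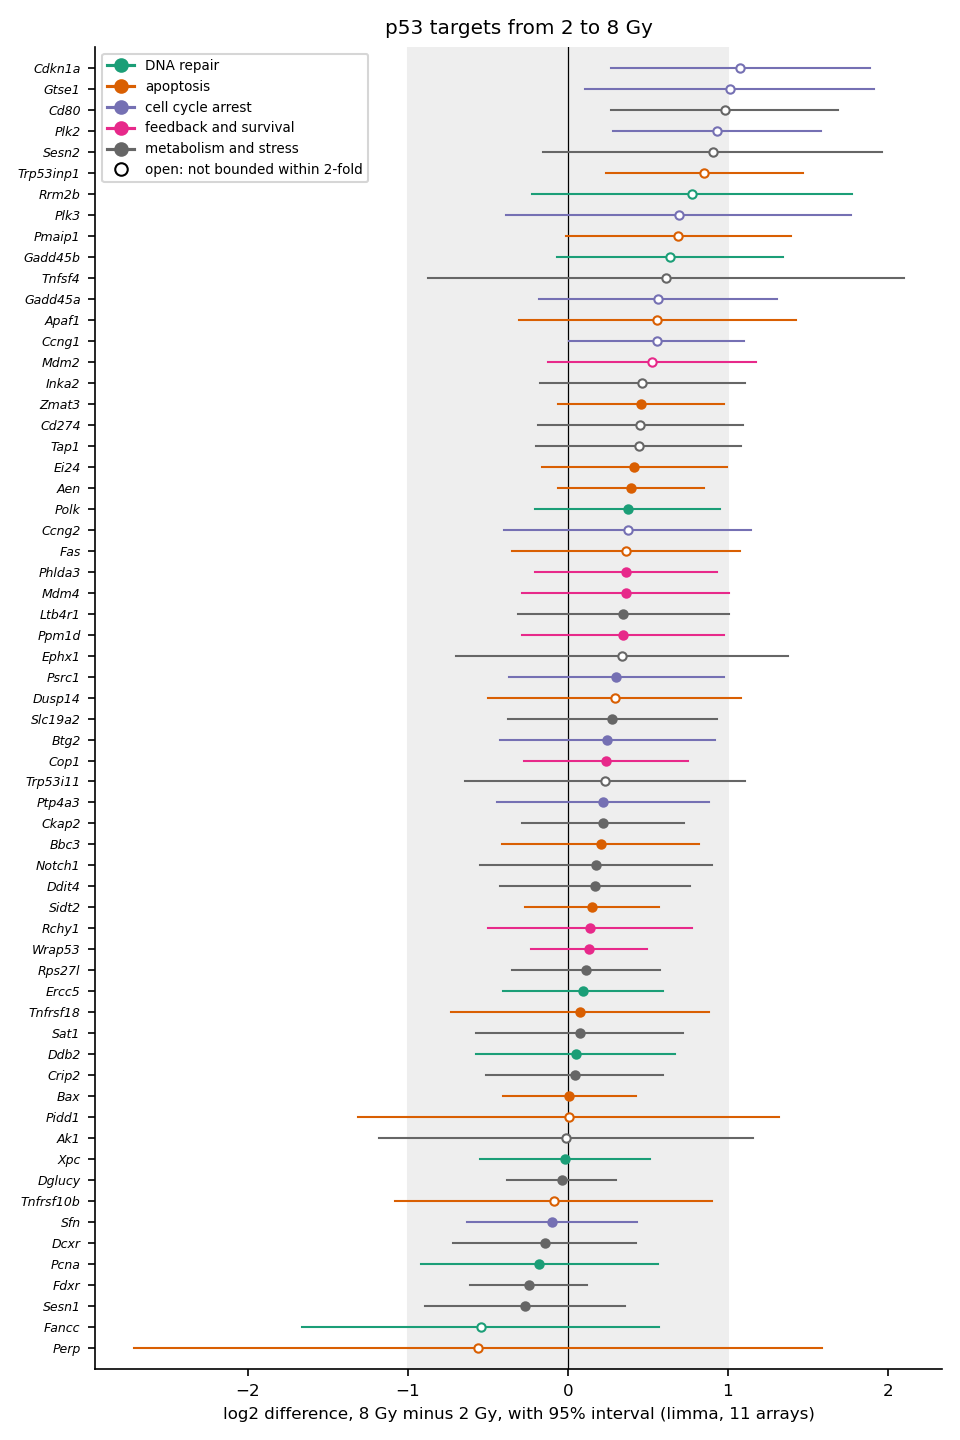
Log2 difference, 8 Gy minus 2 Gy, of the 62 measured p53 targets, ordered by size and coloured by role; bars are 95% intervals from the limma fit to 11 arrays, filled points are bounded within 2-fold and the grey band spans that margin. Cdkn1a, at 1.08, tops the order, while Bax and Dglucy have short bars around 0.

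Taking only the 23 targets whose 2 Gy median lay at least 1 above the 0 Gy median, 14 were bounded from 2 to 8 Gy and the median further difference was 0.37, after a median first step of 1.83. Over all 809 genes with such a first step, 255 (31.5%) were bounded and the median further difference was 0.13. The 2 Gy arrays enter both steps, so an error in them moves the steps in opposite directions. In every one of 5 fits 10 of the 62 targets were bounded, a lower share than the 2805 of all 11969 genes. The fits were all arrays, without 2 Gy replicate 3, without the 2 outlying arrays, without all 3, and with the macrophage covariate. The 10 targets were Bax, Dglucy, Rps27l, Wrap53, Sidt2, Xpc, Ercc5, Sfn, Crip2 and Fdxr. Of these 10, the first 3 had a 2 Gy median at least 1 above the 0 Gy median. The other 7 had no first step of that size to hold.

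**Figure D4:**
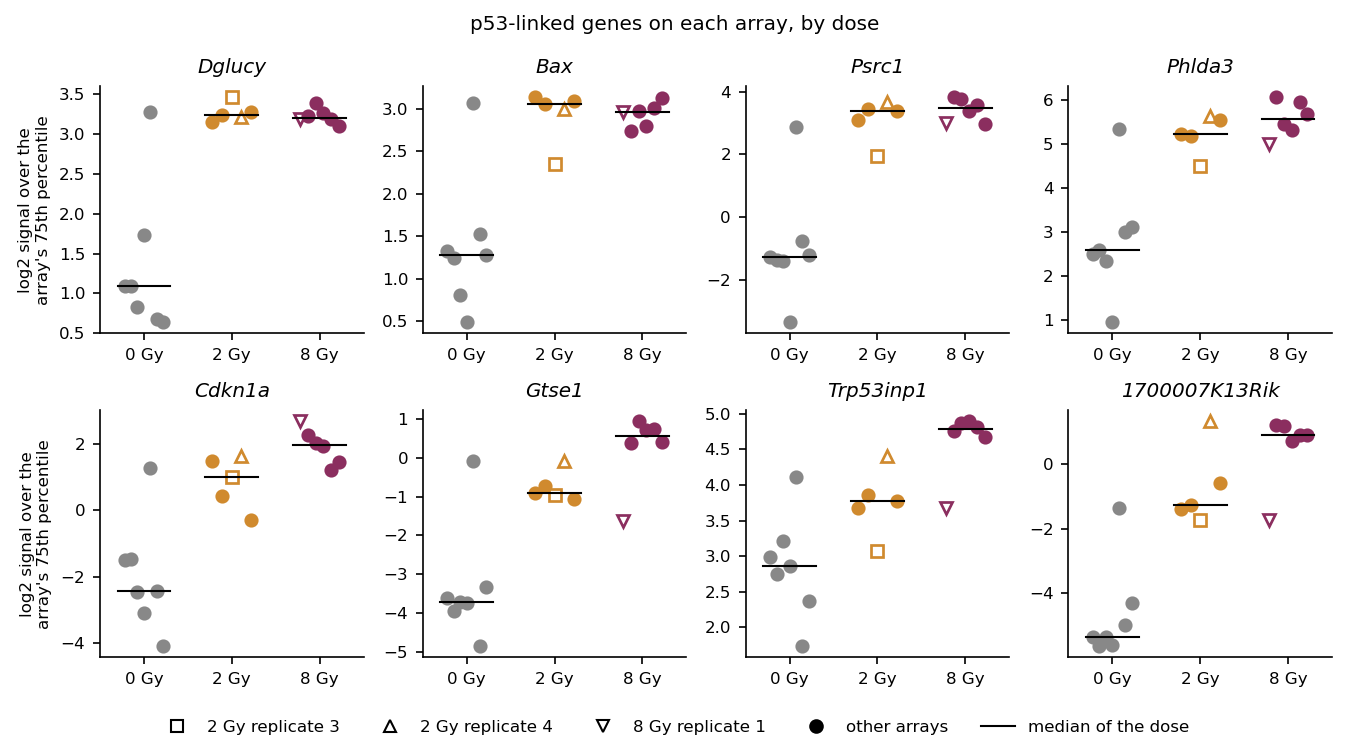
Log2 signal relative to the array's 75th percentile for 8 genes on each array at 0, 2 and 8 Gy; lines are medians of each dose. In the upper row (Dglucy, Bax, Psrc1, Phlda3) the 2 and 8 Gy arrays overlap, as for Dglucy at 3.1 to 3.46. Psrc1 and Phlda3 were not bounded without the 2 outlying arrays. In the lower row (Cdkn1a, Gtse1, Trp53inp1, 1700007K13Rik) most 8 Gy arrays lie higher, and 8 Gy replicate 1 lies low for the last 3.

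Neutrophil genes had the largest median difference of the 22 lists with all arrays, but none passed. All 28 measured markers of mature neutrophils were higher on average at 8 Gy, with a median difference of 0.96 (1.95-fold), 11 at an unadjusted p under 0.05 and none bounded; 0 passed the adjusted threshold in limma. The list's level relative to the 2 Gy mean was 0.17, -0.82, -0.78, 1.27 and 0.16 in 2 Gy replicates 1 to 5. At 8 Gy it ran from -0.13 through 1.00 to 1.63, so the doses overlapped through 2 Gy replicate 4 and 8 Gy replicate 1. Without the 2 outlying arrays 24 of 28 were higher at an unadjusted p under 0.05, against 8.77% of all genes. The median difference was 0.73 without 2 Gy replicate 3 and 1.39 without the 2 outlying arrays. With the macrophage covariate it was 1.37, and 26 of 28 were higher. It was 0.60 with normexp background correction, 0.47 with slide as a random block, -0.90 on the slide with 2 Gy replicate 4 and 2.13 on the scan day with 2 Gy replicate 3. The 0 Gy median was -1.61, so 22 of the 28 markers already had a 2 Gy median at least 1 above 0 Gy, and those 22 differed by a further 1.01.

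Itgam, the integrin subunit CD11b through which neutrophils adhere, read 2.12, 1.28, 1.09, 1.69 and 0.54 at 2 Gy and from 1.60 through 2.47 to 2.91 at 8 Gy (difference 1.01 ± 0.31; limma, adjusted p = 0.889; 0.49 with slide as a fixed block). The antiprotease Slpi stood at 7.41, 6.92, 7.64, 8.29 and 8.29 at 2 Gy and from 8.10 through 8.59 to 8.94 at 8 Gy, a difference of 0.88 ± 0.28, or 0.40 with slide as a fixed block. Il1r2, the decoy receptor for interleukin 1, had the list's largest difference, 1.62, and the widest spread, 0.81 to 4.82 among the 2 Gy arrays against 1.81 to 5.69 among the 8 Gy arrays. Of 14 genes of neutrophil precursors, 13 were higher on average at 8 Gy (median 0.73), 4 of them at an unadjusted p under 0.05. That median was 0.98 without the 2 outlying arrays, 0.48 without 2 Gy replicate 3, 0.43 with normexp background correction and 0.41 with slide as a random block. With no filter on dim probes it was 0.34 over 19 genes, against -0.12 over all genes. The 14 do not include Mpo, Elane and Prtn3, precursor genes of the list that did not pass the filter. Padi4, which citrullinates histones in neutrophil traps, read 4.32, 3.73, 4.16, 4.88 and 3.53 against 4.64 to 5.83 (median 5.33). Its difference of 1.16 ± 0.28 lay between 0.95 and 1.23 without 2 Gy replicate 3, without the 2 outlying arrays and with the macrophage covariate, and was 0.52 with slide as a fixed block.

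B cell and MHC class II genes went the other way, with wide spread. Of 35 B cell genes 27 were lower on average at 8 Gy, with a median of -0.44 (1.36-fold lower). At an unadjusted p under 0.05, 4 were lower; 0 passed the adjusted threshold in limma, and 9 were bounded. All 10 class II genes were lower on average (median -0.38), 0 at an unadjusted p under 0.05, and none was bounded. Without the 2 outlying arrays the medians were -1.09 and -1.15. There 21 of 35 and 10 of 10 were lower at an unadjusted p under 0.05, against 4.74% of all genes. With slide as a random block the medians were -0.02 and 0.16, so the class II median turned direction. On the slide with 2 Gy replicate 4 they were 0.74 and 1.59, and on the scan day with 2 Gy replicate 3 they were -0.64 and -1.01. The array with the highest B cell and class II levels, 8 Gy replicate 1, was also highest for resident macrophage and mesothelial markers. The lowest B cell and class II levels at 2 Gy, in replicate 4, came with the lowest macrophage markers. Other arrays did not follow this. The highest B cell level at 2 Gy, 0.55 in replicate 2, came with a macrophage level of -1.99. At 8 Gy, replicates 4, 5 and 6 had macrophage levels of 2.29, 2.68 and 2.00 and B cell levels of -0.64, -0.85 and -0.80. Whether the 2 levels are linked was not tested. With the macrophage covariate the medians were -0.88 and -1.26.

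Fcer2a read -0.51, 0.36, -0.84, -1.50 and -0.25 at 2 Gy, -0.30 in 8 Gy replicate 1 and between -2.67 and -1.99 in the other 5 arrays at 8 Gy. Its difference of -1.53 ± 0.45 (limma, adjusted p = 0.889) was the list's largest, below a 0 Gy median of 2.11, and was -0.15 with slide as a fixed block. Both Fcer2a and Tnfrsf13c cleared the background in 4 of the 5 mice given 2 Gy and 3 of the 6 given 8 Gy. Tnfrsf13c, the BAFF receptor that keeps mature B cells alive, gave -0.76, 0.12, -0.30, -3.38 and 0.33 at 2 Gy and from -3.07 through -2.44 to 0.68 at 8 Gy (difference -1.19 ± 0.76). The extremes were the 2 outlying arrays, and without them the difference was -2.37 ± 0.33 (limma, adjusted p = 0.0515). Cd79b, the signalling chain of the B cell receptor, read 3.75, 4.39, 3.77, 1.77 and 4.70 against 1.65 to 5.06, a difference of -1.15, or -2.13 without those arrays. Cd22, an inhibitory coreceptor, was at -1.05, -0.47, -0.22, -3.13 and -0.31 at 2 Gy and from -2.89 to 1.33 at 8 Gy, a difference of -0.62 and -1.74 without them. Ms4a1, Cd79a and Pax5, core B lineage genes, differed by -0.68, -0.33 and -0.36, each with an interval that spanned 0; Cd79a and Pax5 were well above background on 5 or 6 of the 11 arrays. Among the class II genes, H2-Aa read 3.44, 3.02, 3.12, 1.46 and 2.92 at 2 Gy and from 1.08 through 1.99 to 4.90 at 8 Gy, against a 0 Gy median of 5.16. With slide as a fixed block Tnfrsf13c, Cd79b, Cd22 and H2-Aa turned direction, to 1.72, 1.39, 2.04 and 1.61; with slide as a random block Cd22 and H2-Aa did, to 0.065 and 0.10. Of the B cell list, 26 of 35 genes already had a 2 Gy median at least 1 below the 0 Gy median, and those 26 differed by a further -0.58, with 3 bounded.

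**Figure D5:**
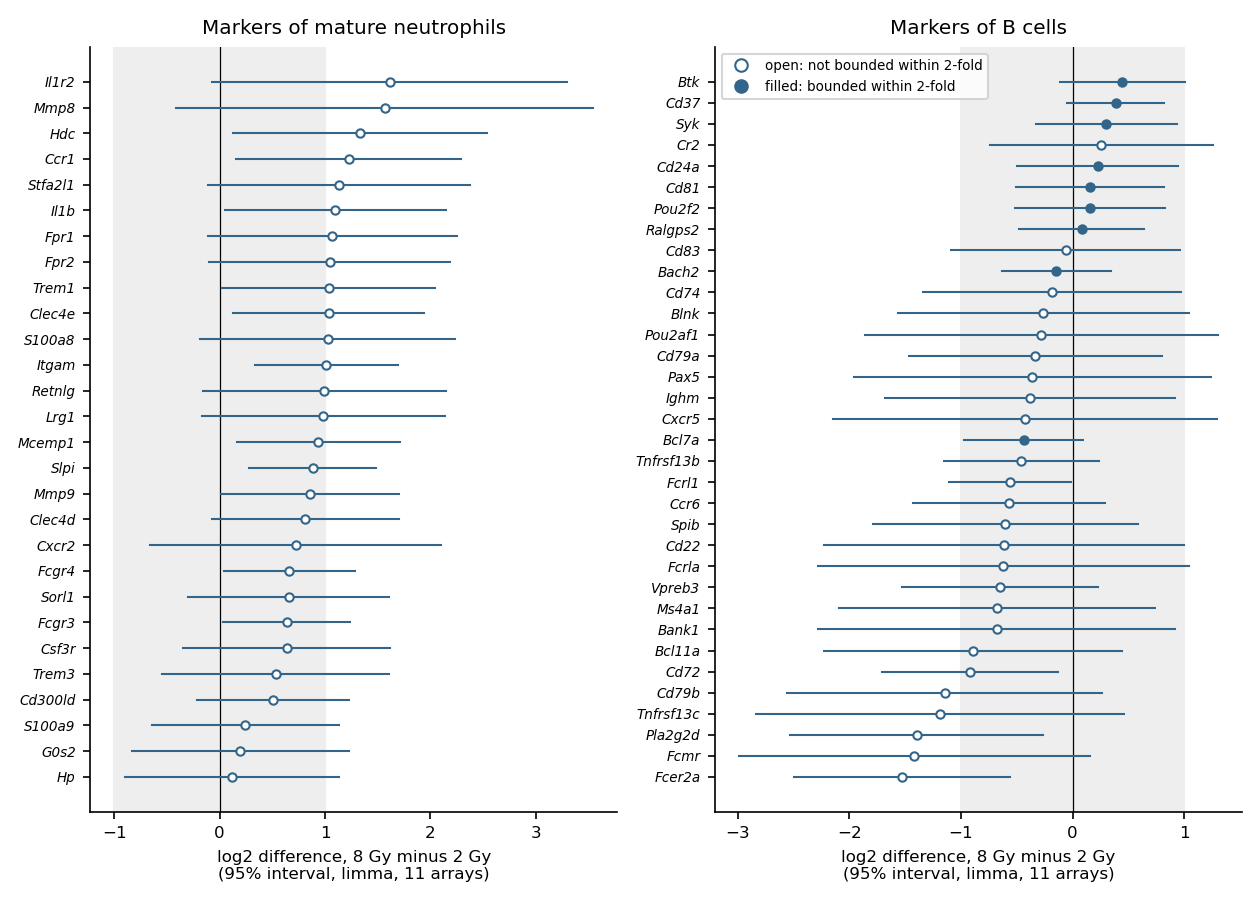
Log2 difference, 8 Gy minus 2 Gy, of 28 mature neutrophil genes (left) and 34 of the 35 B cell genes (right), with 95% intervals from the limma fit to 11 arrays; filled points are bounded within 2-fold and the grey band spans that margin. All 28 neutrophil points lie right of 0, from 0.12 to 1.62, and none is filled, while the B cell points run from -1.53 to 0.45 and 9 are filled.

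Interferon-response genes had a median difference of 0.49 (1.40-fold). Of 36 genes, 31 were higher on average at 8 Gy, 8 at an unadjusted p under 0.05, 0 past the adjusted threshold in limma, and 13 were bounded. Without the 2 outlying arrays 19 were higher and 1 lower at an unadjusted p under 0.05 (median 0.81), against 8.77% and 4.74% of all genes. Without 2 Gy replicate 3 the median was 0.34, with 3 higher at that p. With all arrays the median was 0.29 after normexp background correction and 0.21 with slide as a random block. On the slide with 2 Gy replicate 4 the median was -0.47. Oas3, an antiviral oligoadenylate synthetase, read 2.43, 2.79, 2.21, 3.73 and 1.16 at 2 Gy and from 3.1 through 3.66 to 4.41 at 8 Gy, a difference of 1.32 ± 0.40 (limma, adjusted p = 0.889). Its second probe gave 1.27. Oas2 and the chaperone Rtp4 differed by 1.12 and 0.87, and 2 Gy replicate 4 was the highest 2 Gy array for all 3. With slide as a fixed block Oas3, Oas2 and Rtp4 turned direction, to -0.072, -1.15 and -0.70.

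The immediate early list as a whole narrowly missed an overlap between the doses, with 0.200 the highest at 2 Gy and 0.215 the lowest at 8 Gy. Its level relative to the 2 Gy mean was -0.33 to 0.20 at 2 Gy and 0.22 to 0.69 at 8 Gy, the outlying arrays included, which was so for 1 of the 22 lists. Its median difference was 0.44, or 0.28 without 2 Gy replicate 3, with 5 of 21 genes higher at an unadjusted p under 0.05, 0 past the adjusted threshold in limma, and 7 bounded. Without the 2 outlying arrays the median was 0.43 with 1 bounded. On the slide with 2 Gy replicate 4 the median difference was -0.12. Fosl2, a Fos-family partner of Jun, read 0.52, -0.38, -0.05, 1.61 and 0.27 at 2 Gy and from 0.60 through 1.74 to 2.72 at 8 Gy (difference 1.22 ± 0.41). Jun itself differed by 0.77 ± 0.33, while Nr4a1, an orphan nuclear receptor, was bounded at 0.11. Of 23 NF-kB and inflammatory genes, 6 were higher at an unadjusted p under 0.05 and 12 were bounded (median 0.21; 0.05 without 2 Gy replicate 3 0.38 without the PAXgene array, and 0.36 with 9 bounded without the 2 outlying arrays). Socs3, the feedback inhibitor of cytokine receptors, read 6.59, 5.01, 5.72, 7.75 and 5.82 at 2 Gy and from 6.90 through 7.27 to 7.91 at 8 Gy (difference 1.14 ± 0.42). Ier3, a radiation- and cytokine-induced survival gene, differed by 1.62 ± 0.57. In the heat shock list 10 of 14 were bounded (71.4%, against 64.3% of all genes), as were 10 without the 2 outlying arrays. Hspa1a (Hsp70) was the exception at an unadjusted p under 0.05. It read -0.23, -1.27, -0.69, 0.15 and -1.48 at 2 Gy against -0.03 to 0.74 at 8 Gy (difference 1.10 ± 0.29). All of these differences had a limma adjusted p of 0.889, apart from Nr4a1 at 0.950. With slide as a fixed block Fosl2, Jun, Socs3 and Ier3 turned direction, to -0.51, -0.16, -0.60 and -0.82.

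T and NK cell medians were negative and depended on the arrays and the model. Of 28 T cell genes, 23 were lower on average at 8 Gy (median -0.30), 2 at an unadjusted p under 0.05, and 11 were bounded. Without 2 Gy replicate 3 the median was -0.62 and 13 were lower at an unadjusted p under 0.05, against 3.08% of all genes. Without the PAXgene array it was -0.07, without the 2 outlying arrays -0.31 with 3 bounded, and with normexp background correction -0.49. With the macrophage covariate it turned to 0.11, with 17 of 28 higher on average. For 20 NK and cytotoxic genes the median was -0.33, -0.59 without 2 Gy replicate 3, -0.19 without the PAXgene array, -0.45 without the 2 outlying arrays and -0.03 with the macrophage covariate, where 10 were higher and 10 lower on average. The B cell median without 2 Gy replicate 3 was -0.47, and the difference between these lists was not tested. Zap70, the kinase behind the T cell receptor, was bounded at -0.13, while Cd8b1 differed by -1.003 ± 0.45, and its second probe gave 0.36. Erythroid genes had a median of 0.34 (18 of 37 bounded) and platelet genes 0.16 (19 of 29 bounded); without 2 Gy replicate 3 these were 0.08 and -0.09. Without the 2 outlying arrays they were 0.53 and 0.47, with 1 and 2 genes bounded. Monocyte genes centred on 0.05 with 10 of 19 bounded, and on 0.10 with 2 bounded without the 2 outlying arrays. Without 2 Gy replicate 3 they centred on -0.04. With all arrays 11 were higher and 8 lower on average, 3 and 1 of them at an unadjusted p under 0.05. Cd14, the endotoxin coreceptor, differed by 1.74 ± 0.50, and by 0.92 with the macrophage covariate. Ace, of the same list, went the other way, by -1.10 ± 0.42.

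Genes of general cell upkeep had small medians. All 39 cytosolic ribosomal protein genes were bounded within 2-fold (median -0.12), and between 23 and 36 were bounded in the 4 other fits named above, 28 of them without the 2 outlying arrays. Their median was -0.27 without 2 Gy replicate 3. DNA repair genes were bounded in 35 of 42 cases (median -0.02), with 1 higher and 2 lower at an unadjusted p under 0.05. G1/S and replication genes were bounded in 27 of 35 (median -0.01) and mitotic genes in 13 of 25 (median 0.18; -0.06 without 2 Gy replicate 3), 0 of either at an unadjusted p under 0.05. Without the 2 outlying arrays, where 37.1% of all genes were bounded, 22 of the DNA repair, 16 of the G1/S and 2 of the mitotic genes were. Shares near the 64.3% of all genes are no result about a list. The NRF2 list had 12 of 20 bounded (median 0.21, or 0.05 without 2 Gy replicate 3) and the Bcl2 family 8 of 12 (0.22, or 0.09 without that array). The glucocorticoid list had 3 of 15 bounded (0.43, or 0.48 without 2 Gy replicate 3). Eosinophil and basophil genes had 2 of 9 (0.06, or -0.24 without 2 Gy replicate 3). Without the 2 outlying arrays the NRF2 list had 4 bounded (0.45), the Bcl2 family 3 (0.37), the glucocorticoid list 1 (0.25) and the eosinophil and basophil list 0 (0.22).

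Outside the lists, the genes with the smallest unadjusted p did not pass either. Alox5, the lipoxygenase that starts leukotriene synthesis in myeloid cells, read 3.92, 3.54, 3.49, 4.76 and 3.78 at 2 Gy and from 4.71 through 4.93 to 5.33 at 8 Gy. Its difference of 1.10 ± 0.25 (limma, adjusted p = 0.889) lay between 0.99 and 1.34 in the fits without the arrays that stood apart and with the macrophage covariate, and was 0.18 with slide as a fixed block. Rab11fip5, an adaptor of recycling endosomes, was 1 of 8 genes (0.0668%) with every 8 Gy array above every 2 Gy array. It read 1.52, 0.84, 1.79, 1.59 and 1.03 at 2 Gy and 1.99 to 3.31 at 8 Gy, a difference of 1.14 ± 0.26. Its 0 Gy median, 2.25, lay with the 8 Gy arrays. Another 12 genes (0.1%) had every 8 Gy array below every 2 Gy array, among them the odorant receptor gene Olfr549 (difference -0.87 ± 0.21) and Asphd2 (-1.72 ± 0.49). Xrn1, a 5′-to-3′ RNA exonuclease, did not clear the background in any 2 Gy array and did so in 5 of the 6 at 8 Gy. It therefore entered the test only through its 8 Gy arrays, and that choice fixes a higher level there. The largest differences of all were in genes of macrophages and acute inflammation, Saa3 at 4.00 and Cxcl13 at 3.92, chosen after their values were seen. They were 1.00 and 1.14 with the macrophage covariate, and each cleared background in 3 of the 5 mice given 2 Gy and 6 of the 6 given 8 Gy. Saa3 spanned -2.07 to 5.14 among the 2 Gy arrays against 1.26 to 6.69 among the 8 Gy arrays. Gdf15, a stress cytokine and p53 target also chosen after its values were seen, differed by 1.43 ± 0.43 and by 0.76 with the covariate.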

How the data were processed

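Each sample's RNA was hybridised to an Agilent 1-colour mouse array. The deposited scanner files hold a processed signal, an intensity that Agilent Feature Extraction (version 9.5.3.1) had background-subtracted and detrended, per the file headers. The deposited table of the series, also intensity, has nearly equal medians in every column (20.66); its normalization is not given in the sources used here, and it served as an alternative. Intensities were taken to log2, averaged per probe and reduced by the array's 75th percentile. A probe entered if 5 or more of the 11 arrays showed it well above background, and the probe with the highest mean stood for its gene. Of 41174 probes, 23075 were named through accessions and 9659 through symbols matched to RefSeq, and 1116 kept the file's name. limma 3.58.1 in R 4.3.3 fitted dose to the 11 arrays, with p adjusted by the Benjamini-Hochberg method over all genes. The code was tested on simulated data.

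The members and gene lists were chosen with earlier results of these data known. Named genes were the 10 of each direction with the smallest p, in each list the 4 lowest p and the 3 lowest p of the bound (fewer where a list is short), and 20 p53 and B cell genes. Gtse1, 1700007K13Rik, the immunoglobulin segments, Saa3, Cxcl13, Gdf15, Rps27l, Il1r2 among the neutrophil genes and the targets listed as bounded in every fit were named after their values were seen. Some genes that the rule names are not reported here. So were the markers of cells from outside the blood and the fits that use them or leave out more than 1 array. Of the 5 shared replicate numbers, 3 had correlated deviations over 0.1 (range -0.20 to 0.18). The main fit did not pair samples by number, and whether the numbers mark pairs was not tested.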

Additional observations from a re-analysis of the deposited data

Results flagged for a closer look

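In 45 of 428 groups examined, 1 array's gap to its neighbour took an unusually large share of the group's range (Dixon's criterion, which chance meets in about 1 group in 20). The array labelled 8 Gy replicate 1 stood apart from its group with mean list levels relative to the 2 Gy mean of platelets and megakaryocytes list -0.53 and NRF2 and oxidative stress list -0.27 and log2 signals of Fcer2a -0.30, Trp53inp1 3.67, Fcrl1 -0.998, H2-DMa 2.53, Hdc 5.08, Itgb3 7.93, Fas 2.70, Cd79b 5.06, Cd22 1.33, Tnfrsf13c 0.68, H2-Aa 4.90, 1700007K13Rik -1.74, Gtse1 -1.62, Igk-V1 -0.18 and the second kappa segment -0.48. In 2 Gy replicate 3 the values far from the group were mean list levels relative to the 2 Gy mean of apoptosis regulators of the Bcl2 family list -0.65 and log2 signals of Bax 2.35, Zap70 1.31, Cst7 -0.16, Nkg7 4.12, Hspe1 3.16, Rrm2 -0.66, Mki67 2.42 and Ddb2 -0.54. For 2 Gy replicate 4 they were mean list levels relative to the 2 Gy mean of MHC class II list -1.22 and log2 signals of Kank3 2.27, Rtp4 6.57, Nfkb2 1.99, Hsph1 2.44, Cd22 -3.13, H2-Aa 1.46 and the second kappa segment -3.87. The array labelled 0 Gy replicate 5 stood apart from its group with mean list levels relative to the 2 Gy mean of p53 targets list 0.059, mature neutrophils list 0.41 and immediate early list 0.46. In 8 Gy replicate 4 the values far from the group were log2 signals of Ets2 2.29 and Cd63 3.23. For 2 Gy replicate 5 they were log2 signals of Asphd2 0.68 and Rfc5 1.18. The array labelled 8 Gy replicate 3 stood apart from its group with log2 signals of Cxcl13 -1.40 and Saa3 1.26. In 8 Gy replicate 2 the values far from the group were log2 signals of Nr4a1 6.35. For 8 Gy replicate 6 they were log2 signals of Bmf 0.47. Most of these values belong to the 3 arrays that stood apart. No explanation for them was tested.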

How the results depend on the processing

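limma called 0 genes at an adjusted p of 0.05 under every setting tried except 1. That setting left out 2 Gy replicate 4 and 8 Gy replicate 1, with 2 higher and 3 lower. Those 2 arrays were picked by their values, so these calls are descriptions. Leaving out 1 array at a time gave 0 higher and 0 lower each time, and between 5821 (without 2 Gy replicate 4) and 8446 (without 2 Gy replicate 3) bounded genes against 7694. With every probe as a feature 11687 of 18898 probes (61.8%) were bounded, and with no filter on dim probes 6110 of 20508 genes (29.8%), where the median over all genes moved from 0.036 to -0.12. The bounded genes numbered 4441 without 2 Gy replicate 4 and 8 Gy replicate 1, 3076 with the macrophage covariate, and 0 with slide as a fixed block, with scan day as a fixed block, or within 1.5-fold. Those blocks leave 1 array at 2 Gy in each batch that holds both doses; the cause was not tested. With the replicate number as a block, limma called 0 higher and 0 lower, 326 were higher and 416 lower at an unadjusted p under 0.05, and 6792 were bounded. At that p, array weights gave 1478 higher and 1395 lower, and slide as a random block 153 and 67. Of 5644 values of 183 named genes over the settings, 5209 kept the sign. The sign turned for 89 genes with slide as a fixed block, 48 with scan day as a fixed block, 40 with normexp and at most 22 under any other setting. Among the 65 named genes with an unadjusted p under 0.05, it turned only under the fixed blocks. With slide, the log2 differences of those that turned were Kank3 -0.13, Ets2 -0.16, Ccr3 0.021, Plk2 -0.22, Pla2g2d 0.096, Cd72 0.31, Mcemp1 -0.39, Clec4e -0.43, Cd63 -0.25, Cd177 -0.019, Hdc -1.14, Tmcc2 -0.27, Ank1 -0.025, Oas3 -0.072, Ddx58 -0.34, Rtp4 -0.70, Oas2 -1.15, Ier3 -0.82, Socs3 -0.60, Tnfaip2 -0.85, Fosl2 -0.51, Jun -0.16, Hmox1 -0.098, Xrcc5 0.048 and Gtse1 -0.096. With scan day they were Cd72 0.088, Cd8b1 0.074 and Jun -0.026. Signal over background went with what could be bounded: 32.9% of genes not above background on all 11 arrays were bounded, against 72.6% of the others.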
